A study of Homo sapiens with 6 samples.

Results

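Homologous recombination repairs broken chromosomes by copying the sister chromatid, and the Fanconi anemia pathway uses the same machinery to remove links between the strands of DNA. Ends are first trimmed back by MRE11, RAD50, NBN and RBBP8. BRCA1, PALB2 and BRCA2 then prepare the exposed strand for pairing with the sister. Helicases and nucleases such as BLM, MUS81 and GEN1 resolve the joined molecules, while ATM, ATR and their kinases halt the cell cycle. Many of these genes are transcribed most strongly as cells copy their DNA, and dividing colorectal cancer cells express them widely.

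The 41 genes described here are the annotated rows whose symbol matches a list of recombination, Fanconi and damage checkpoint genes. All 41 were found among 20474 annotated genes, and all 41 reached a mean of 1 FPKM (fragments scaled to transcript length and to the depth of the library), the level above which 11831 genes were tested. The samples were HCT116 cells, an established human colorectal cancer line that is deficient in mismatch repair. One group received the non-targeting siRNA (sicontrol, genotype WT) and the other an siRNA against POU2F1 (siPOU2F1, genotype POU2F1 knockdown), with 3 libraries each and RNA taken 48 h after transfection. POU2F1 encodes the octamer-binding factor OCT1, and the comparison asks how these genes differed when its mRNA was lowered. An siRNA lowers rather than removes its target, and the cells are of 1 line. Nothing in the labels ties the replicates to separate cultures, so the tests measure the spread between libraries, and that spread may be technical.

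POU2F1 checked the labels. Its level was 4.16, 3.60 and 4.26 FPKM in the controls (here and below in the order of replicates 1, 2 and 3) against 1.87, 1.69 and 1.73 FPKM after siPOU2F1. All siPOU2F1 libraries lay below all sicontrol libraries, differing by -0.99 ± 0.14 on the log2 scale (± SE here and below; limma, adjusted p = 0.0333). With 3 against 3, p cannot go below 0.1 in an exact permutation test (two-sided), and POU2F1 reached that value. The depth behind each value is not given by FPKM, but low values placed the other libraries between 0.78 and 0.97 of the depth of sicontrol replicate 1, from 12 to 23 genes a library. Mitochondrial transcripts held 6.05% to 8.42% of the FPKM sum. Of 9 epithelial markers, 8 or 9 reached 1 FPKM in every library. Of 7 fibroblast, 7 leukocyte and 5 endothelial markers, 1, 1 or 2 and 0 did. In every library these included COL1A1 (1.55 to 3.58 FPKM) and CD68 (4.89 to 6.42 FPKM). ITGAM reached 1 FPKM in sicontrol replicate 2 only and LYZ in siPOU2F1 replicate 3 only, and PTPRC was at 0 FPKM throughout. Library siPOU2F1 replicate 3 stood apart from its group. Across the tested genes it correlated at r = 0.977 with sicontrol replicate 2 but at 0.946 and 0.948 with siPOU2F1 replicates 1 and 2, which correlated with each other at 0.989, although its POU2F1 level was as low as theirs. Results are therefore given with and without it, a choice that rests on the values themselves. The fit without it compares 3 sicontrol with 2 siPOU2F1 libraries. Leaving out a treated library that resembles a control can itself raise the number of calls, so the adjusted p values of that fit are descriptive.

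None of the 41 genes passed the test over all 6 libraries, while 147 of the 11831 tested genes did (1.24%; limma, adjusted p under 0.05). At an unadjusted p under 0.05, 6 members were lower and 0 were higher, against 9.90% and 8.22% of all tested genes. The lowest adjusted p was 0.101, for CHEK1. Log2 fold changes ran from -0.96 in GEN1 to 0.31 in UBE2T, with 26 negative, 15 positive and a median of -0.07, beside a median of -0.01 over all tested genes. Groups did not overlap for 8 members. In 5 of them (CHEK1, FANCI, XRCC3, FANCA and BARD1; 12.2%) every siPOU2F1 library was below every sicontrol library, against 12.0% of tested genes. MRE11, ATM and FANCE (7.32%) were above in every library, against 11.3%. These shares are near the background.

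Without siPOU2F1 replicate 3, 12 members were called lower and 0 higher (limma, adjusted p under 0.05). Those are 29.3% of the members, where 15.8% of tested genes were called lower and 9.48% higher in the same fit. The 12 were CHEK1, FANCI, XRCC3, BRCA1, RBBP8, ATR, XRCC2, GEN1, RMI1, FANCL, MUS81 and BRCA2, and the median over the 41 genes was then -0.17. Leaving out any of the other 5 libraries instead called 0 members, but it also left 0 to 9 calls over all genes. In siPOU2F1 replicate 3, 3 of the 12 lay below every sicontrol library, 5 lay within the sicontrol range and 4 lay above it. Because the 12 were picked without that library, this split is partly set by the choice. Counted without a test, siPOU2F1 replicates 1 and 2 were below every sicontrol library for 20 of the 41 genes (48.8%, against 35.0% of tested genes) and above for 6 (14.6%, against 27.6%). For 15 of those 20, siPOU2F1 replicate 3 was not below the lowest sicontrol library. Over all tested genes, 4144 had siPOU2F1 replicates 1 and 2 below every sicontrol library, and 1422 had all siPOU2F1 libraries below. Most genes with that pattern thus had a higher replicate 3, not only the members. Giving each library a weight estimated from its scatter called 16 members lower and 7 higher, or 56.1%, and the 16 lower ones held all 12 genes called lower without siPOU2F1 replicate 3. The same weights called 50.4% of all tested genes. They were estimated from the same values, so the shared 12 genes give no separate support.

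**Figure D1:**
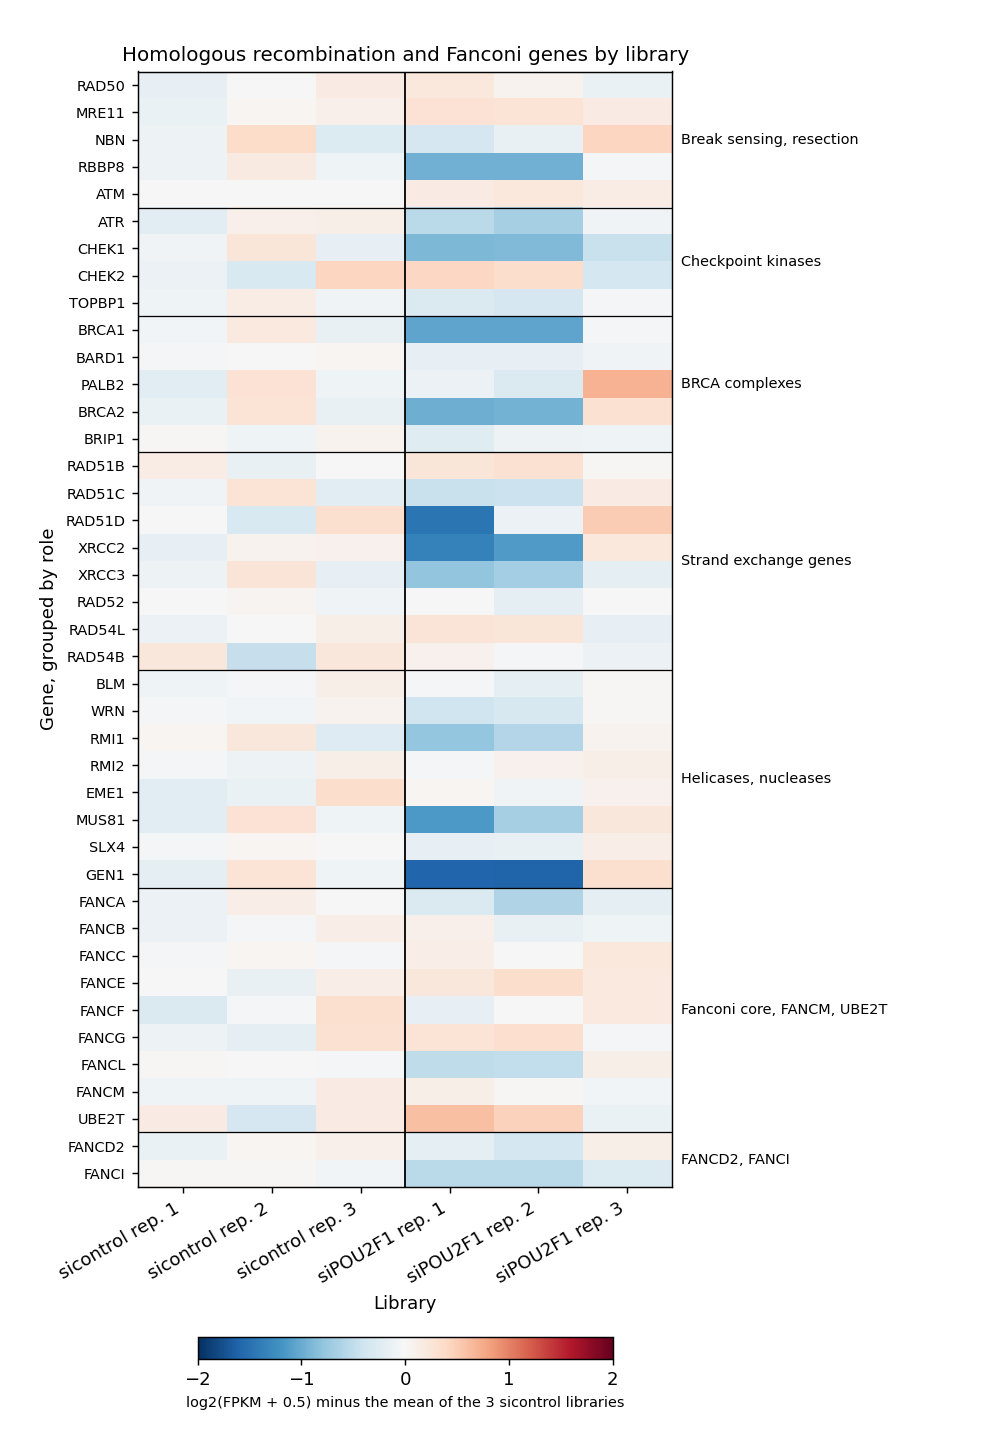
Each row is 1 of the 41 genes, grouped by role, and each column 1 library. Colour gives log2(FPKM + 0.5) minus the mean of the 3 sicontrol libraries, from blue (lower) to red (higher). Blue blocks in siPOU2F1 replicates 1 and 2, as in GEN1, XRCC2 and BRCA1, are mostly missing from siPOU2F1 replicate 3.

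Levels in sicontrol cells spanned a wide range per length of transcript. UBE2T, the ubiquitin-conjugating enzyme of the Fanconi pathway, was the highest at 46.1 ± 8.68 FPKM, followed by FANCI at 32.6 ± 1.16, CHEK1 at 32.1 ± 4.96 and RAD51C at 29.9 ± 5.30 FPKM (SD, n = 3 each). FANCI, CHEK1 and RAD51C lay within their SDs of each other. The lowest were SLX4 at 1.68 ± 0.0465 and FANCM at 1.90 ± 0.247 FPKM (SD, n = 3 each).

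The checkpoint kinases held the member with the lowest p. CHEK1 (ENSG00000149554; chr11:125625136-125676255, plus strand, GRCh38), the kinase that ATR activates at stalled forks, measured 30.3, 37.7 and 28.2 FPKM in sicontrol and 16.8, 16.9 and 23.3 FPKM in siPOU2F1. Its groups did not overlap, with siPOU2F1 replicate 3 the nearest to the controls. On the log2 scale CHEK1 differed by -0.74 ± 0.17 (limma, adjusted p = 0.101), and -0.90 without siPOU2F1 replicate 3 (adjusted p = 0.0101). ATR (chr3:142449235-142578826, minus strand), the kinase that senses exposed single strands, had 8.26, 10.3 and 10.5 against 6.48, 5.90 and 9.18 FPKM. Here siPOU2F1 replicate 3 fell inside the control range. The log2 fold changes of ATR were -0.42 with all libraries (adjusted p = 0.296) and -0.60 without that library (adjusted p = 0.0273). TOPBP1, the activator of ATR, had -0.22, and CHEK2, the kinase downstream of ATM, had 0.14, and neither was called in either fit. CHEK2 ranged from 7.42 to 12.7 FPKM in sicontrol and from 7.20 to 12.6 FPKM in siPOU2F1, so its groups overlapped over most of their range.

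Among the BRCA genes, BRCA1 and BRCA2 were called lower without siPOU2F1 replicate 3, and BARD1, PALB2 and BRIP1 were not called in either fit. BRCA1 (ENSG00000012048; chr17:43044295-43170245, minus strand), the scaffold of the repair complex, had 13.4, 15.9 and 12.5 FPKM in the controls against 6.39, 6.39 and 13.5 FPKM after siPOU2F1. The first 2 siPOU2F1 libraries averaged 45.9% of the sicontrol mean, and the other one was at 97.3%. BRCA1 differed by -0.72 ± 0.29 on the log2 scale (limma, adjusted p = 0.254), and without siPOU2F1 replicate 3 by -1.06 ± 0.13 (adjusted p = 0.00684). BRCA2 (chr13:32315474-32400266, plus strand), which acts at the exposed strand, had 4.40, 6.02 and 4.38 against 2.24, 2.29 and 6.18 FPKM. Its siPOU2F1 replicate 3 was the highest of all 6 libraries, and the log2 fold change went from -0.54 (adjusted p = 0.434) to -0.96 (adjusted p = 0.0137) without it. BARD1, the obligate partner of BRCA1, had 6.31, 6.37 and 6.66 against 5.69, 5.70 and 6.13 FPKM. Those groups did not overlap, at -0.13 ± 0.11 on the log2 scale (adjusted p = 0.532). PALB2, the bridge between BRCA1 and BRCA2, had 0.10 and turned to -0.20 without siPOU2F1 replicate 3, where it measured 9.95 FPKM against at most 7.34 FPKM elsewhere. BRIP1, a helicase bound by BRCA1, had -0.14 (adjusted p = 0.573).

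Of the 5 genes that sense breaks and trim their ends, only RBBP8 was called lower without siPOU2F1 replicate 3. RBBP8 (chr18:22798261-23026488, plus strand) encodes CtIP, which starts resection. It measured 26.2, 32.0 and 26.5 FPKM in sicontrol and 14.2, 14.2 and 27.8 FPKM in siPOU2F1, the last value lying within the control range. RBBP8 differed by -0.65 ± 0.26 on the log2 scale (limma, adjusted p = 0.261), and -0.96 without siPOU2F1 replicate 3 (adjusted p = 0.00689). MRE11, the nuclease of the sensing complex, had 10.1, 11.4 and 12.0 against 13.8, 13.6 and 12.5 FPKM. Every siPOU2F1 library was thus above every control, at 0.25 with an SE of 0.12 (adjusted p = 0.311). ATM, the kinase that MRE11, RAD50 and NBN activate, was the tightest of these genes, with 6.36, 6.46 and 6.49 against 7.28, 7.54 and 7.16 FPKM. That is a difference of 0.17 with an SE of 0.11 on the log2 scale (adjusted p = 0.408). RAD50 (0.05) and NBN (-0.02) differed by less than their SEs of 0.14 and 0.25. RAD50 shares 90.6% of its exonic bases with AC116366.3 on its own strand, at 2.05 FPKM in sicontrol and 1.37 FPKM in siPOU2F1, so its level is uncertain. NBN was highest in sicontrol replicate 2 (11.8 FPKM) and siPOU2F1 replicate 3 (12.4 FPKM).

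**Figure D2:**
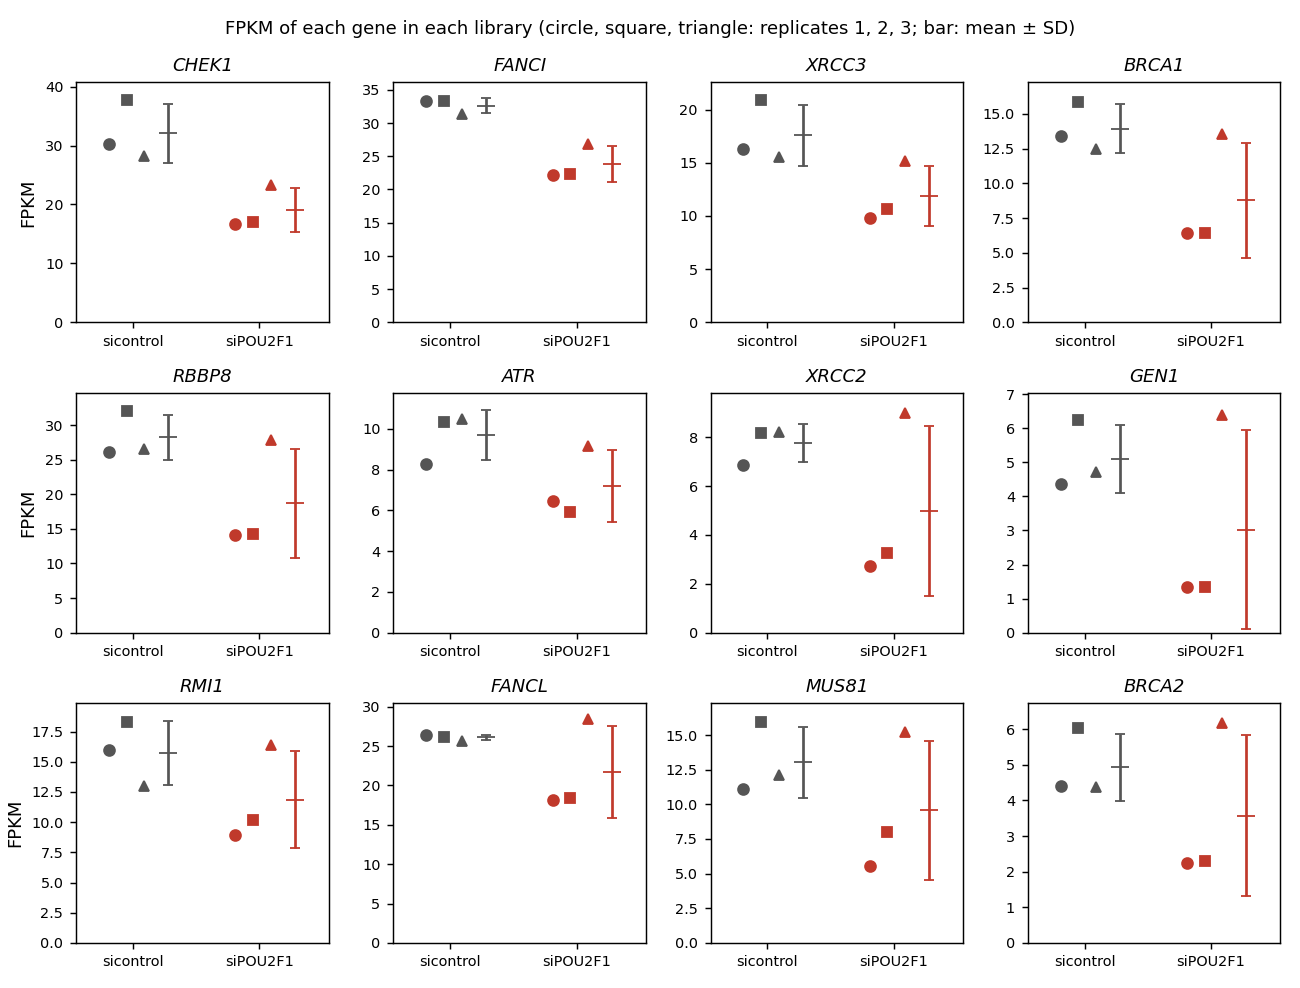
FPKM of the 12 genes called lower without siPOU2F1 replicate 3, 1 panel a gene, on axes that start at 0. Symbols are single libraries and bars the mean ± SD of 3. The triangle of siPOU2F1 (replicate 3) lies above the circle and square in all 12 panels. Because the 12 were picked without that library, its place above is partly set by the choice. Without such a choice, siPOU2F1 replicate 3 was the highest siPOU2F1 library in 68.3% of all members and in 50.6% of tested genes.

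The strand exchange genes RAD51B, RAD51C, RAD51D, XRCC2 and XRCC3 differed among themselves. XRCC2 (chr7:152644779-152676165, minus strand) measured 6.88, 8.16 and 8.23 FPKM in sicontrol and 2.73, 3.24 and 8.98 FPKM in siPOU2F1. Replicate 3 was the highest of all libraries and the other siPOU2F1 libraries averaged 38.5% of the sicontrol mean. For XRCC2 the log2 difference was -0.76 ± 0.39 (limma, adjusted p = 0.338), and -1.24 without siPOU2F1 replicate 3 (adjusted p = 0.00566). XRCC3 (chr14:103697609-103715504, minus strand), its counterpart in the complex with RAD51C, had 16.3, 20.9 and 15.6 against 9.82, 10.7 and 15.1 FPKM, with no overlap. Its log2 fold changes were -0.56 (adjusted p = 0.206) with all libraries and -0.74 (adjusted p = 0.0181) without that library. XRCC3 shares 45.3% of its exonic bases with KLC1, an antisense neighbour at 64.4 FPKM in sicontrol and 52.3 FPKM in siPOU2F1 on average. Because the strand setting of the counting is not given, reads of the 2 genes may not be told apart. RAD51C had -0.24 and RAD51B 0.19, not called in either fit. RAD51D varied from 0.762 to 4.47 FPKM within siPOU2F1 alone, so its -0.36 had an SE of 0.48. RAD52, RAD54L and RAD54B, which also act in strand exchange, had -0.06, 0.11 and -0.02 (adjusted p from 0.712 to 0.960), and RAD54B shares 63.3% of its exonic bases with FSBP on its own strand. RAD54L shares 18.0% with antisense LRRC41, at 10.6 FPKM in sicontrol and 11.8 FPKM in siPOU2F1 on average.

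Genes that unwind or cut joined DNA held the widest difference of the 41. GEN1 (ENSG00000178295; chr2:17753858-17788941, plus strand), a nuclease that cuts Holliday junctions, measured 4.37, 6.24 and 4.72 FPKM in sicontrol against 1.35, 1.33 and 6.40 FPKM in siPOU2F1. Its siPOU2F1 replicates 1 and 2 averaged 26.2% of the sicontrol mean, whereas replicate 3 was at 125%. GEN1 differed by -0.96 ± 0.51 on the log2 scale (limma, adjusted p = 0.349), and by -1.59 ± 0.18 without siPOU2F1 replicate 3 (adjusted p = 0.00528). MUS81 (chr11:65857126-65867653, plus strand), the catalytic part of a further junction nuclease, had 11.1, 15.9 and 12.1 against 5.56, 7.99 and 15.2 FPKM, or -0.52 (adjusted p = 0.423). It shares 2.70% of its exonic bases with CFL1, a far higher antisense gene (349.8 and 346.3 FPKM). EME1, the partner of MUS81, had 0.02, ranged from 5.54 to 8.51 FPKM over all libraries and shares 10.3% of its exonic bases with LRRC59 (60.5 and 60.7 FPKM). RMI1 (chr9:83980711-84004074, plus strand), a subunit of the BLM dissolution complex, had 15.9, 18.3 and 13.0 against 8.90, 10.2 and 16.4 FPKM, or -0.43 (adjusted p = 0.369). Without siPOU2F1 replicate 3, MUS81 had -0.90 (adjusted p = 0.0245) and RMI1 had -0.68 (adjusted p = 0.0274). Of the other subunits of that complex, RMI2 had 0.05 and the helicase BLM -0.07 with all libraries, and neither was called in either fit. The topoisomerase TOP3A had -0.44 (adjusted p = 0.539), and -0.90 without siPOU2F1 replicate 3 (adjusted p = 0.0116). The helicase WRN had -0.23 and the nuclease scaffold SLX4 -0.06, neither called in either fit.

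In the Fanconi pathway the core complex adds ubiquitin to the pair FANCD2 and FANCI. FANCI (ENSG00000140525; chr15:89243949-89317261, plus strand) measured 33.3, 33.3 and 31.3 FPKM in sicontrol and 22.2, 22.3 and 26.9 FPKM in siPOU2F1, without overlap and with siPOU2F1 replicate 3 between the groups' other libraries. FANCI differed by -0.45 ± 0.11 on the log2 scale (limma, adjusted p = 0.116), and -0.54 without siPOU2F1 replicate 3 (adjusted p = 0.0121). FANCI shares 8.33% of its exonic bases with POLG, which runs antisense to it and averaged 12.1 FPKM in sicontrol and 13.8 FPKM in siPOU2F1. FANCD2, the partner of FANCI, had 5.13, 5.84 and 6.13 against 4.91, 4.33 and 6.23 FPKM, which overlap (-0.14, adjusted p = 0.644).

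FANCL (chr2:58159243-58241372, minus strand), the ubiquitin ligase of the core, had 26.4, 26.2 and 25.7 against 18.2, 18.5 and 28.4 FPKM. Replicate 3 again stood above the controls, and the log2 fold change of -0.29 (limma, adjusted p = 0.402) became -0.50 without it (adjusted p = 0.0141). FANCL shares 26.6% of its exonic bases with antisense VRK2, at 17.3 FPKM in sicontrol and 15.4 FPKM in siPOU2F1 on average. UBE2T, the conjugating enzyme that works with FANCL, pointed the other way, with 51.2, 36.1 and 50.9 against 69.5, 63.1 and 41.3 FPKM. Those groups overlapped, and UBE2T had 0.31 with all libraries (adjusted p = 0.475) and 0.54 without siPOU2F1 replicate 3 (adjusted p = 0.0577). FANCA, the largest core subunit, had 7.38, 8.94 and 8.01 against 6.55, 5.19 and 6.97 FPKM, with no overlap (-0.36, adjusted p = 0.274). It shares 22.4% of its exonic bases with ZNF276 on the opposite strand. ZNF276 was also lower on average, at 4.17 FPKM in sicontrol and 2.76 FPKM in siPOU2F1, and reads of the 2 genes may not be told apart. FANCE, which recruits FANCD2, had 5.96, 5.29 and 6.53 against 6.96, 7.67 and 6.83 FPKM, also with no overlap (0.26, adjusted p = 0.338). The core subunits FANCB, FANCC, FANCF and FANCG and the anchor FANCM had log2 fold changes from -0.04 to 0.19, each with an adjusted p of at least 0.557.

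**Figure D3:**
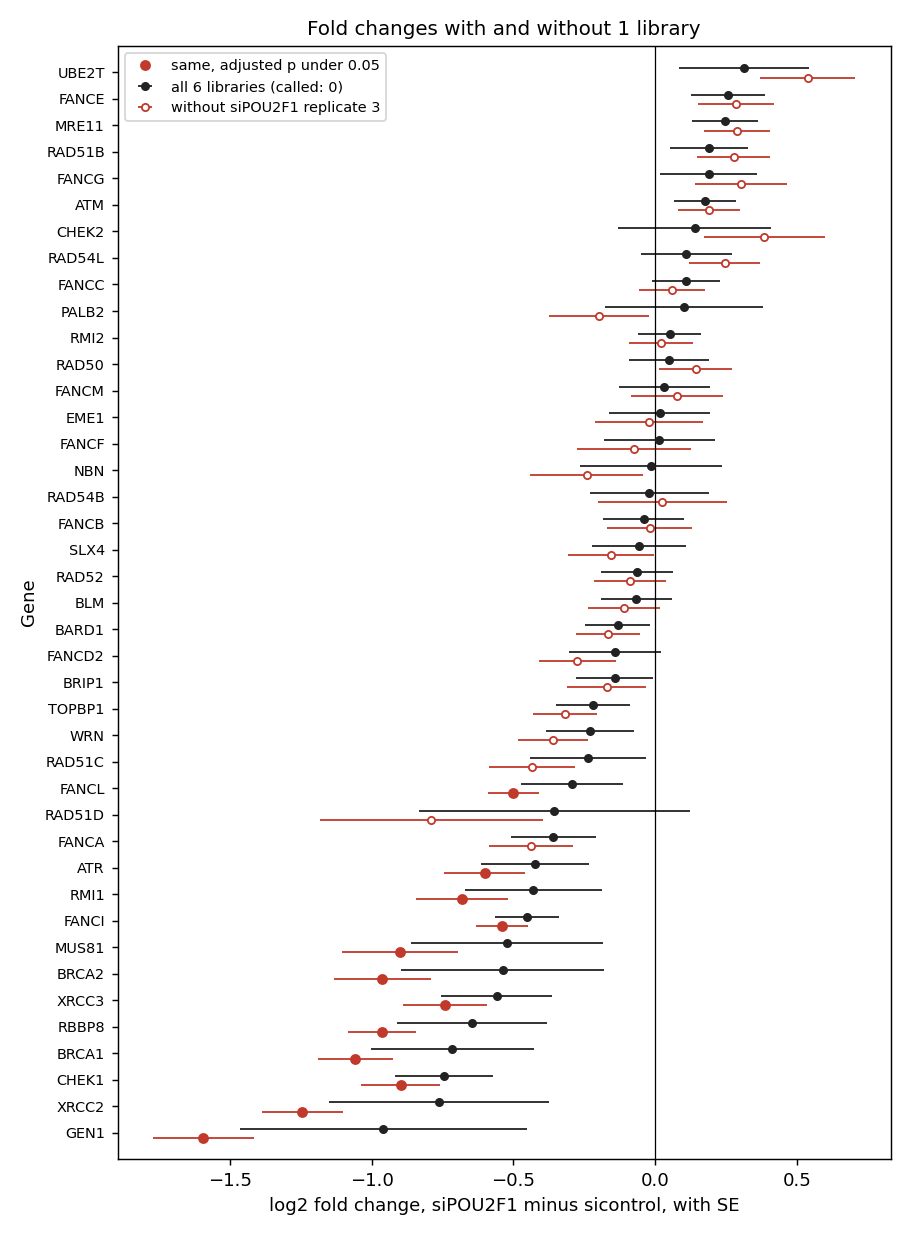
Log2 fold change with its SE for each of the 41 genes, on the log2(FPKM + 0.5) scale, with all 6 libraries (black) and without siPOU2F1 replicate 3 (red, filled where the adjusted p was under 0.05). The 12 filled points lie between -1.59 in GEN1 and -0.50 in FANCL, and no positive point is filled.

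By role, medians of siPOU2F1 replicates 1 and 2 relative to the sicontrol mean were -0.42 and -0.50 (log2) for the checkpoint kinases and -0.37 and -0.45 for FANCD2 and FANCI. Values of -0.28 and -0.25 belonged to the helicases and nucleases and -0.25 and -0.29 to the BRCA genes. The strand exchange genes (RAD51B to RAD51D, XRCC2, XRCC3, RAD52 and the RAD54 genes) had -0.22 and -0.15. The end-sensing genes (0.16 and 0.07) and the Fanconi core with FANCM and UBE2T (0.12 and 0.01) were not below the controls. In siPOU2F1 replicate 3 the medians were nearer to 0 or above it, at -0.21 for the checkpoint kinases, -0.08 for FANCD2 and FANCI, 0.10 for the helicases and nucleases, -0.03 for the BRCA genes and 0.0007 for the strand exchange genes. The end-sensing genes had 0.14 there and the Fanconi core -0.04. Over all 41 genes the 3 siPOU2F1 libraries had -0.17, -0.16 and 0.02, and over all tested genes -0.04, -0.03 and 0.04. Because recombination genes follow the cell cycle, 25 proliferation genes were set beside them. With all libraries none of these was called (limma; lowest adjusted p = 0.179), their median log2 fold change was -0.04, and siPOU2F1 replicates 1 to 3 had medians of 0.06, -0.03 and -0.0005. The median of replicate 3 covers genes on both sides, since 11 of the 25 were below every sicontrol library there, 8 within their range and 6 above it. The 11 were the mitosis-related genes MKI67, TOP2A, CCNA2, CCNB1, CDK1, PLK1, AURKA, AURKB and BUB1, with RRM1 and CDC6. MCM2, MCM3, CCNE1, E2F1, RRM2 and GINS2, the 6 above, act in S-phase entry or DNA copying, as do RRM1 and CDC6. A median over both kinds thus hides a difference in cell cycle profile in that library, whose part in the results was not tested. The 25 ran from 60.7% of the sicontrol mean in TOP2A, a topoisomerase of dividing cells, to 130% in E2F1, a transcription factor of S-phase entry. In bulk RNA, fewer cells in a phase of the cycle and less RNA per cell cannot be told apart. MKI67, a marker of cycling cells, measured 28.2, 26.9 and 27.0 FPKM against 28.5, 25.6 and 19.0 FPKM, with siPOU2F1 replicate 3 the lowest library. CDC6, which loads the replicative helicase, had -0.72 (adjusted p = 0.202), RRM2, a ribonucleotide reductase subunit, 0.36 (0.179) and AURKA, a mitotic kinase, -0.28 (0.336). Without siPOU2F1 replicate 3, CDC6 was called lower (-1.01, adjusted p = 0.00706) and RRM2 higher (0.46, adjusted p = 0.0180), and the median of the 25 was 0.01. CDC6 measured 26.3, 32.7 and 26.2 against 14.1, 13.6 and 25.5 FPKM, so its siPOU2F1 replicate 3 was also near the controls. Some epithelial markers differed between the same libraries. CLDN4, a tight junction claudin with the largest fold change of the 9, had 116, 121 and 77.7 against 283, 303 and 111 FPKM. The 9 markers summed to between 2851 and 3729 FPKM in sicontrol and to 5502, 5359 and 3878 FPKM in siPOU2F1. Most of that sum was from the keratins KRT8 and KRT18, at 1978 and 2185 FPKM in siPOU2F1 replicate 1. Without siPOU2F1 replicate 3, 5 of the 9 markers were called higher, where 9.48% of tested genes were, and with all libraries 0 were. In the fit without that library EPCAM had -0.01 and CDX2 -0.16. The part of these markers in the results was not tested.

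**Figure D4:**
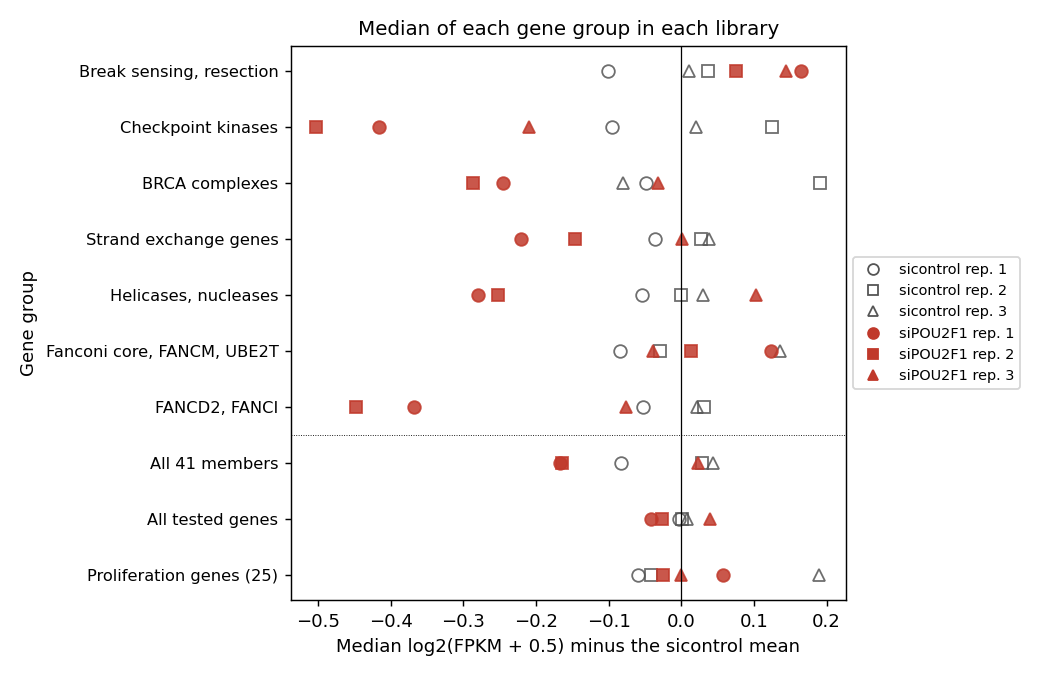
Median of each role group, of all 41 genes, of all tested genes and of 25 proliferation genes in each library, as log2(FPKM + 0.5) minus the sicontrol mean. Open symbols are sicontrol and filled symbols siPOU2F1 libraries. For the 41 genes siPOU2F1 replicates 1 and 2 lie at -0.17 and -0.16 and replicate 3 at 0.02.

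Partner genes of the pathway gave no called gene over all 6 libraries in any of 4 lists (limma, adjusted p under 0.05). Without siPOU2F1 replicate 3, 12 of 37 recombination partners were called lower and 4 higher, 5 of 16 Fanconi partners lower, 6 of 21 checkpoint partners lower and 4 of 17 end-joining genes lower. Over all tested genes that fit called 15.8% lower and 9.48% higher. LIG4, the ligase of end joining, had 6.91, 8.20 and 6.97 against 2.19, 2.25 and 4.46 FPKM, a log2 fold change of -1.24 (limma, adjusted p = 0.0743). POLQ, the polymerase of microhomology-mediated joining, had 5.42, 5.70 and 6.23 against 2.47, 2.69 and 3.70 FPKM, or -0.88 (adjusted p = 0.0657). Both were below the controls in every siPOU2F1 library, replicate 3 included. NHEJ1 had 0.42 (0.230).

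RPA1, the large subunit of the protein that coats single strands, had 25.8, 28.6 and 32.0 against 20.2, 19.6 and 17.1 FPKM, with siPOU2F1 replicate 3 the lowest (-0.59, adjusted p = 0.0777). RTEL1, a helicase that limits recombination, had -0.61 (0.0859), and FIGNL1, an AAA+ ATPase of recombination, -0.51 (0.152). REV3L, the catalytic subunit of the translesion polymerase zeta, had -0.77 (0.148), UHRF1 -0.56 (0.240) and FAAP20, a Fanconi core protein, -0.35 (0.183). Of the checkpoint partners, CLSPN, the adaptor between ATR and CHEK1, had -0.78 (0.219), TP53BP1, which opposes resection, -0.43 (0.189) and TIMELESS, a fork protein, 0.41 (0.149).

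Promoters were read for matches to the POU2F1 octamer and to cell cycle motifs, as a description with no test. RefSeq promoters of GRCh38.p14, 300 bases from 250 before to 50 after a start, were found for 36 of the 41 genes (49 promoters). The octamer ATGCAAAT, on either strand, was in 0 of 36 genes and in 1.80% of 9578 tested genes with a promoter, which says only that these letters are not in these windows. The 6-letter CHR motif TTTGAA was in 4 of 36 (11.1%, against 13.2%). The E2F-type letters TTTGGCGC or TTTCCCGC were in 3 of 36 (8.33%, against 4.61%), 1 of them (XRCC2) among the genes called lower without siPOU2F1 replicate 3. These 3 promoters are shown 5′ to 3′ because they hold the E2F-type matches, in capitals. The FANCC promoter shown also holds TTTGAA near its first base, left in lower case. They are XRCC2 (chr7:152676092-152676391, minus strand), FANCD2 (chr3:10026187-10026486, plus strand) and FANCC (chr9:95317660-95317959, minus strand).
XRCC2 promoter: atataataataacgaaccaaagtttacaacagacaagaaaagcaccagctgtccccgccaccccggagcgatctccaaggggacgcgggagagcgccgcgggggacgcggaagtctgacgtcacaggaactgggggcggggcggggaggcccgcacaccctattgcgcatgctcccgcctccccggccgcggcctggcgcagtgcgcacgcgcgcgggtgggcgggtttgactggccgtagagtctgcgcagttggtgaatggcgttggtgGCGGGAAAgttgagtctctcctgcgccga
FANCD2 promoter: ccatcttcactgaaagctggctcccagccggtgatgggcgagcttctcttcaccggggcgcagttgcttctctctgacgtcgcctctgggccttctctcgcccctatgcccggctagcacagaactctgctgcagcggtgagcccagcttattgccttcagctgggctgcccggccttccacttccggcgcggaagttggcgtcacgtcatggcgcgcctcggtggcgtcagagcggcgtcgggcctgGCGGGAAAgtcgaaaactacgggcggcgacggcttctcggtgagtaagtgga
FANCC promoter: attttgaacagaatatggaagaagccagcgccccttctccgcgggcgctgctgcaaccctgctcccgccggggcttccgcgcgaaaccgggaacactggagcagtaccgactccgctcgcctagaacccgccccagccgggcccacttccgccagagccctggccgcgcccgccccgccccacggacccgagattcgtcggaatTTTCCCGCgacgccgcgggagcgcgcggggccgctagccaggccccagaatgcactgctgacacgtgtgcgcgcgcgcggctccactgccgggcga

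The 3′ UTRs were read for 2 words, AACTGCA and AGAATGA, that an earlier search of these fold changes had tied to lower expression, so their shares support nothing on their own. In GENCODE release 29, using the transcript with the longest coding part of each gene, AACTGCA was in 3 of 41 members (7.32%), against 12.4% of 11518 tested genes with a 3′ UTR. AGAATGA was in 7 (17.1%, against 14.9%). CHEK1 and FANCI, the members with the lowest p, each held 1 copy of AACTGCA, and RAD50, whose log2 fold change was 0.05, held 2. BRCA1 held 1 copy of AGAATGA and GEN1 held 2, whereas XRCC2, XRCC3, BRCA2, RBBP8, ATR, RMI1, FANCL and MUS81 held neither word. A longer 3′ UTR has more room for a word, and length was not accounted for. It was 7002 bases in GEN1, 1383 in BRCA1, 670 in FANCI and 156 in CHEK1. In the called-lower genes just named with neither word it ran from 130 bases in RBBP8 to 2138 in XRCC2. ATM (3591 bases) and BARD1 (3030 bases), not called in either fit, also held neither word. AGAATGA was also in FANCC, FANCD2, NBN, RAD50 and RAD52, none of which was called lower in either fit. Among the 12 genes called lower without siPOU2F1 replicate 3, 4 held either word (33.3%), as did 34.5% of all genes called lower in that fit. Among the other 29 members, 5 did (17.2%), beside 21.4% of all genes not called lower. Sites of 5 genes follow with the word in capitals, those of CHEK1, FANCI, BRCA1 and GEN1 as genes called lower and the AACTGCA sites of RAD50 as a gene that was not. They lie in the last exon at chr11:125655408-125655414 (CHEK1), chr15:89316584-89316590 (FANCI), chr5:132644025-132644031 and chr5:132645111-132645117 (RAD50), all on the plus strand. The AGAATGA sites shown lie at chr17:43045634-43045640 (BRCA1, minus strand), chr2:17784568-17784574 and chr2:17788483-17788489 (GEN1, plus strand).
CHEK1 AACTGCA site: cctgtcctgcaAACTGCAaatagtagttcc
FANCI AACTGCA site: ccactgaattcAACTGCAccttcagttaga
RAD50 AACTGCA site 132644025: acagtcatcttAACTGCAaaataaaacatt
RAD50 AACTGCA site 132645111: ttaataacaatAACTGCAcccctccaaaat
BRCA1 AGAATGA site: acaggaccccaAGAATGAgcttacaaagtg
GEN1 AGAATGA site 17784568: atcccagttccAGAATGAggaaggggagaa
GEN1 AGAATGA site 17788483: cttctgtgggcAGAATGAatattttgctaa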

How the data were processed

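PolyA RNA sequencing of 6 HCT116 libraries (3 sicontrol, 3 siPOU2F1) was analysed from the FPKM values that the authors deposited, 1 table a library. Per the submitters' processing notes, the tools were StringTie 2.1.2, HISAT2 2.0.4 and Bowtie2 2.2.5 on the build hg38, with no role stated. No source used here gives the annotation, filters or strand setting. Each table held 22782 features, of which 20474 were annotated genes and 2308 assembled transcripts not used here. No 2 libraries were identical.

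Values were used without further scaling as log2(FPKM + 0.5), which understates changes of low genes. Genes averaging 1 FPKM or more were compared with limma 3.58.1 (R 4.3.3; with a trend, and no term but group), with Benjamini-Hochberg adjustment over all tested genes and a threshold of 0.05. The fit was tested on simulated data. Alternatives changed the pseudocount, filter, scaling, library weights, trend, replicate block and each library. Positions and 3′ UTRs came from GENCODE release 29 (GRCh38, the same build as hg38, 1-based) and promoters from RefSeq. Summaries and plots used matplotlib 3.10.9, scipy 1.17.1, pandas 2.3.3 and Python 3.11.15. The 41 genes and the partner lists were chosen with earlier results of these data known. By rule, named genes are POU2F1, the 41 members and the 3 partners with the lowest p in each list, with per-library values for the 10 members with the lowest p. Other members' library values, and MKI67, TOP2A, E2F1, TOP3A, CLDN4, KRT8, KRT18, EPCAM, CDX2, PTPRC, COL1A1, CD68, ITGAM and LYZ, were chosen after values were seen. So were the proliferation genes named for their place in siPOU2F1 replicate 3. KLC1, VRK2, POLG, ZNF276, FSBP, LRRC41, AC116366.3, CFL1 and LRRC59 are named for their overlap with members.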

Additional observations from a re-analysis of the deposited data

How the results depend on the processing

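Over the 41 genes, 0 were called with another pseudocount, filter, scaling or trend setting, and the sign was kept for all fitted members except under quantile normalization (3) and scaling to the same sum (2). Quantile normalization turned NBN to 0.0271, RAD54B to 0.0214 and FANCB to 0.0074, and scaling to the same sum turned EME1 to -0.0133 and FANCF to -0.0144. Library weights called 16 members lower and 7 higher and turned PALB2 to -0.0797. Leaving out sicontrol replicate 2 and siPOU2F1 replicate 3 together was chosen after seeing the data. It called 12 lower and 1 higher (UBE2T, 0.37). The 12 were the same as without siPOU2F1 replicate 3. That library is missing from both fits, so the match gives no separate support. Leaving out both also turned PALB2 to -0.0556, RMI2 to -0.0303, EME1 to -0.0911 and FANCF to -0.0912.

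Leaving out 1 library at a time gave 0 to 12 members lower. It moved log2 fold changes across zero for RAD50 (-0.0328 to 0.14), NBN (-0.24 to 0.17), CHEK2 (-0.0169 to 0.38), PALB2 (-0.20 to 0.29), RAD51D (-0.79 to 0.20), RAD54B (-0.25 to 0.10), EME1 (-0.0933 to 0.20), FANCB (-0.12 to 0.0267), FANCF (-0.13 to 0.18) and FANCM (-0.0131 to 0.12).

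POU2F1 stayed at -0.99 but lost its call without a filter (adjusted p = 0.0650) and with the replicate block (0.297). Leaving out 1 library gave -1.06 to -0.95 (adjusted p from 0.00946 to 0.222), past the threshold only without siPOU2F1 replicate 3. Over all genes, 47 were higher and 100 lower. Without a filter these were 24 and 48, with library weights 2651 and 3312, without both libraries 1055 and 1721, and leaving out 1 library 0 to 1120 and 0 to 1870. Without the trend 23 were higher. Calls among recombination, Fanconi, checkpoint, end-joining and proliferation genes were 25, 11, 11, 7 and 7 with weights, at most 16, 5, 6, 4 and 2 (at least 0) leaving out 1 library, and 11, 3, 6, 4 and 2 without both.

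With the replicate number as a block, 0 genes were called higher and 0 lower. Same-numbered libraries correlated at 0.133, -0.545 and -0.512 in their deviations from the group means. For sicontrol replicate 2 and siPOU2F1 replicate 3 the correlation was 0.643. Deviations from a mean of 3 depend on each other, so this check cannot tell whether same-numbered libraries share a culture or batch. The cause of these changes was not tested. FPKM gives no depth per gene, and 3 libraries a group limit the precision.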
